A study of Homo sapiens with 6 samples.

Results

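The genes described here are 9 factors of nonsense-mediated mRNA decay (NMD): UPF1, UPF2, UPF3A, UPF3B, SMG1, SMG5, SMG6, SMG8 and SMG9. They were chosen by gene symbol, mapped from the Ensembl identifiers of the count files, and are 9 of the 60675 genes in those files. RNA-seq was performed on PLC/PRF/5 cells, an established human hepatocellular carcinoma (HCC) line, in 3 libraries labelled control and 3 labelled MTR4 KD. MTR4, encoded by MTREX, is the RNA helicase that delivers nuclear RNA to the exosome for decay. The study's text describes an inducible shRNA knockdown compared before and after doxycycline, while the deposited description calls the control wild, so whether the controls carry the construct is not settled. Both groups come from a single cell line, and no doxycycline-treated scramble library was analysed here. The labels do not say whether the libraries came from separate cultures, so the p-values measure the spread between these libraries, which may be technical.

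NMD removes mRNAs on which the ribosome stops too early. UPF1 is the central helicase, UPF2 and the paralogs UPF3A and UPF3B connect it to the exon junction complex left behind by splicing, and the kinase SMG1, with its partners SMG8 and SMG9, phosphorylates UPF1. Phosphorylated UPF1 is then bound by SMG6, an endonuclease that cuts the mRNA, and by SMG5, an adaptor for deadenylation and decapping. The mRNAs of UPF1, UPF2, UPF3B, SMG1, SMG5 and SMG6 are reported targets of NMD themselves, a feedback by which a cell with weak NMD makes more of the factors. UPF3A, SMG8 and SMG9 are not among those reported targets.

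The libraries held between 60686786 and 72708682 reads on genes. MTREX, the targeted gene, measured 72.2, 87.4 and 74.4 CPM (reads scaled to a common library total) in the controls and 44.6, 48.8 and 44.1 CPM in the knockdown, a log2 fold change of -0.77 (SE 0.0897, adjusted p = 0.0064, edgeR). Its level fell by 41.2% (95% interval -49.2 to -32.0%), so the factors were measured under a partial knockdown. The libraries also fell into 2 sets that the labels do not name. Between 34.7 and 37.5% of the entries of control 1, control 3 and MTR4 KD 3 were reads with more than 1 alignment, against 14.8 to 18.2% for control 2, MTR4 KD 1 and MTR4 KD 2. Between 2 replicates of one group, the chi-square per degree of freedom over genes was 74.1 to 83.1 across the sets and 4.54 and 7.52 within them, where sampling noise alone gives about 1. The groups are split unevenly over the sets, so each member's change is given also with the library set as a covariate and within each set. The 13 hepatocyte and HCC markers, among them ALB, AFP and APOA1, were present in every library (39819 to 41814 CPM in sum in the controls and 40257 to 42664 CPM in the knockdown). Of these 13 markers, edgeR called 4 higher in the knockdown with condition only (TTR at 0.88 on the log2 scale, APOA1 at 0.52, APOH at 0.45 and ALB at 0.29) and KRT18 lower (-0.26). Leukocyte markers summed to 1.02 to 3.73 against 0.489 to 1.32 CPM, endothelial markers to 0.0995 to 0.359 against 0.244 to 0.538 CPM, and fibroblast markers to 6.79 to 12.4 against 5.56 to 10.0 CPM. None of these marker lists is at 0, and their part in any result was not tested. In RNA from a bulk culture, a change in the RNA per cell and a change in the mixture of cells cannot be told apart.

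The changes of the 9 NMD factor genes on MTR4 knockdown were small, and which of them passed the test depended on whether the library set was in the fit. With the set as a covariate UPF3A and SMG5 were called higher, as described below. With condition as the only term, edgeR's quasi-likelihood test called 0 of 9 at an adjusted p under 0.05, where it called 3.6% of the 18075 genes tested (1.48% higher and 2.12% lower). Only UPF3A had an unadjusted p under 0.05, where 18.8% of all genes did, and the DESeq2 and limma-voom fits also called 0. The estimates ran from -0.16 for SMG9 to 0.21 for UPF3A on the log2 scale, 7 above and 2 below 0, with a median of 0.07 against 0.01 for all genes. This median was 0.04 with the covariate and 0.17 without MTR4 KD 3. The 95% intervals reached from -0.65 to 0.61 over all members, so a doubling or a halving lay outside the interval of each of them. The median absolute log2 change was 0.101 for the members and 0.163 for all tested genes. The counts behind these values were between 987 and 18550 reads per gene and library. The reported feedback targets had a median of 0.09 over 6 genes, and the other 3 genes a median of -0.05. With the library set as a covariate these medians were 0.03 and 0.04.

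**Figure D1:**
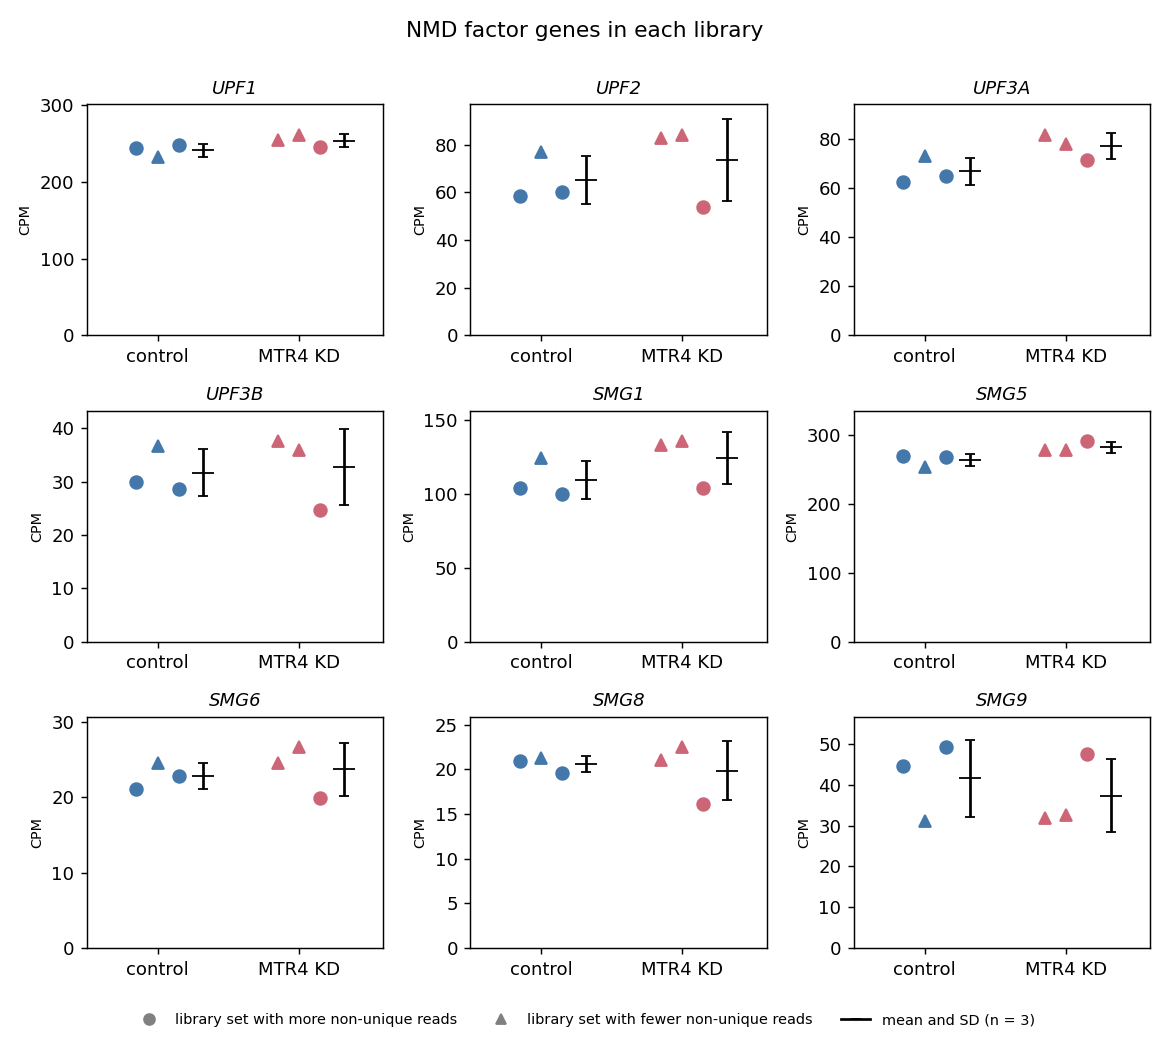
CPM (vertical axis, from 0) of each NMD factor gene in the 3 control libraries (blue) and the 3 MTR4 KD libraries (red), with the mean and SD of each group in black. Circles are the libraries with more reads of several alignments and triangles those with fewer. In all panels but those of UPF1 and SMG5 the triangles of both colours lie apart from the circles, though only narrowly for UPF3A and SMG8. In the panel of SMG5 all red points lie above the blue ones.

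The NMD factors were expressed at very different levels. Per kilobase of the canonical transcript, SMG5 was highest in control cells at 57.8 ± 1.94 CPM per kb (SD, n = 3), followed by UPF1 at 45.4 ± 1.61 and UPF3A at 28.3 ± 2.30. UPF3B (13.5 ± 1.85) and UPF2 (12.6 ± 1.98) came next. SMG9 (7.58 ± 1.72), SMG1 (6.82 ± 0.809) and SMG8 (6.40 ± 0.276) followed, all of the kinase complex, and SMG6 was lowest at 3.81 ± 0.286 CPM per kb. The control values of UPF3B and UPF2, of SMG9 and SMG1, and of SMG1 and SMG8 overlapped between libraries, and so did those of the knockdown. All other neighbours in this order were separated in both groups. Reads with more than 1 alignment were left out of the counts. The levels of SMG1 and UPF3A, which have annotated pseudogene copies, may therefore be understated in this order. The mRNA of the adaptor SMG5 thus stood 15.2-fold above that of the endonuclease SMG6 on this length-adjusted scale.

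The central helicase UPF1 (ENSG00000005007, chromosome 19, 18831959 to 18868230, plus strand, GRCh38.p14) measured 245, 232 and 248 CPM in the controls and 254, 262 and 246 CPM in the knockdown. The groups overlapped. Its log2 fold change was 0.07 (SE 0.0583, adjusted p = 0.567, edgeR), that is 5.08% higher with a 95% interval from -4.42 to 15.5%. It was among the 2 members with the narrowest intervals. With the library set as a covariate the log2 fold change was 0.07 (95% interval -0.02 to 0.17, adjusted p = 0.288, edgeR). Within the sets the difference was -0.01 among libraries with more reads of several alignments and 0.15 among those with fewer.

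UPF2, the bridge between UPF1 and UPF3 (ENSG00000151461, chromosome 10, 11920022 to 12043170, minus strand), measured 58.6, 77.0 and 60.1 CPM in the controls and 82.8, 84.3 and 53.7 CPM in the knockdown. MTR4 KD 3 was the lowest of all 6 libraries and the other 2 knockdown libraries the highest. The log2 fold change of 0.17 (SE 0.187, adjusted p = 0.673, edgeR) became -0.01 (95% interval -0.13 to 0.11, adjusted p = 0.939) with the library set as a covariate. Within the sets it was -0.14 and 0.12.

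UPF3A and UPF3B are paralogs that both bind UPF2. UPF3A (ENSG00000169062, chromosome 13, 114281601 to 114305817, plus strand) measured 62.8, 73.1 and 65.0 CPM in the controls and 82.0, 78.3 and 71.8 CPM in the knockdown. The groups overlapped by 1 pair, with control 2 above MTR4 KD 3. Its log2 fold change was 0.21 (SE 0.0827, unadjusted p = 0.0388, adjusted p = 0.238, edgeR), and with the library set as a covariate 0.15 (95% interval 0.06 to 0.24, adjusted p = 0.0278, edgeR). The difference was 0.17 within the one set and 0.13 within the other. UPF3B (ENSG00000125351, chromosome X, 119805311 to 119852963, minus strand) measured 29.9, 36.7 and 28.6 CPM in the controls and 37.7, 36.0 and 24.6 CPM in the knockdown. As for UPF2, MTR4 KD 3 was the lowest library. The log2 fold change of UPF3B was 0.05 (SE 0.173, adjusted p = 0.912, edgeR) and -0.11 (95% interval -0.26 to 0.03, adjusted p = 0.250) with the covariate, and -0.24 and 0.01 within the sets. The ratio of UPF3A to UPF3B reads, which does not depend on library size, was 2.12 ± 0.140 in the controls and 2.42 ± 0.425 in the knockdown (SD, n = 3, exact two-sided permutation p = 0.4, adjusted p = 0.9 over 3 ratios). On the log2 scale the difference was 0.18, and 0.41 and 0.13 within the sets. With 3 libraries against 3, this test cannot go below 0.1.

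The kinase SMG1 (ENSG00000157106, chromosome 16, 18804860 to 18926408, minus strand) measured 104, 124 and 100.1 CPM in the controls and 133, 136 and 104 CPM in the knockdown. Control 1 and MTR4 KD 3 were nearly level, and the groups overlapped. Its log2 fold change was 0.18 (SE 0.127, adjusted p = 0.503, edgeR) and 0.07 with the covariate (95% interval -0.02 to 0.16, adjusted p = 0.291). Within the sets the difference was 0.02 and 0.11. SMG1 has 7 annotated pseudogene copies, which can share its reads. They held 357 to 455 reads in sum per library, or 4.57 to 6.56% of the SMG1 reads, and 0 of the 6 that were tested was called by edgeR (adjusted p from 0.488 to 0.902). The 3 copies of UPF3A held 20 to 30 reads in sum, 0.382 to 0.638% of its reads, and the 1 tested, UPF3AP1, was not called (adjusted p = 0.948, edgeR). Reads with more than 1 alignment were entered apart from the genes. The counts on these copies therefore do not measure how many reads they share with SMG1 or UPF3A.

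SMG8 and SMG9 bind SMG1 and restrain its activity. SMG8 (ENSG00000167447, chromosome 17, 59210035 to 59215230, plus strand) measured 20.9, 21.3 and 19.6 CPM in the controls and 21.0, 22.5 and 16.1 CPM in the knockdown. MTR4 KD 3 stood below the 5 other libraries. The log2 fold change was -0.05 (SE 0.128, adjusted p = 0.867, edgeR), -0.15 with the covariate (95% interval -0.32 to 0.03, adjusted p = 0.247), and -0.32 and 0.03 within the sets. SMG9 (ENSG00000105771, chromosome 19, 43727983 to 43754962, minus strand) measured 44.7, 31.0 and 49.2 CPM in the controls and 31.8, 32.5 and 47.6 CPM in the knockdown. Its 3 high libraries were those with more reads of several alignments, whatever their group. The log2 fold change of -0.16 (SE 0.212, adjusted p = 0.745, edgeR) became 0.04 with the covariate (95% interval -0.08 to 0.16, adjusted p = 0.706), and was 0.02 and 0.05 within the sets. The SMG8 to SMG9 read ratio was 0.518 ± 0.150 in the controls and 0.564 ± 0.196 in the knockdown (SD, n = 3, exact two-sided permutation p = 0.9, adjusted p = 0.9). The log2 difference of 0.09 turned to -0.35 and -0.02 within the sets. The ratio averaged 0.402 in the set with more reads of several alignments and 0.680 in the other.

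SMG5 and SMG6 carry out the decay step. SMG5 (ENSG00000198952, chromosome 1, 156249224 to 156291516, minus strand) measured 269, 253 and 268 CPM in the controls and 278, 278 and 291 CPM in the knockdown. It was the only member whose groups did not overlap, all 3 knockdown libraries being higher, as 12.1% of all tested genes were (24.7% in either direction). The log2 fold change was 0.10 (SE 0.0568, adjusted p = 0.394, edgeR), or 7.25% higher with a 95% interval from -2.20 to 17.6%. With the covariate it was 0.13 (95% interval 0.04 to 0.21, adjusted p = 0.0350, edgeR), and 0.12 and 0.13 within the sets. SMG6 (ENSG00000070366, chromosome 17, 2059839 to 2303785, minus strand) measured 21.0, 24.5 and 22.8 CPM in the controls and 24.5, 26.6 and 19.9 CPM in the knockdown. MTR4 KD 3 was again the lowest library. Its log2 fold change was 0.06 (SE 0.121, adjusted p = 0.849, edgeR) and -0.04 with the covariate (95% interval -0.19 to 0.12, adjusted p = 0.780), and -0.14 and 0.06 within the sets. The ratio of SMG5 to SMG6 reads was 11.6 ± 1.22 in the controls and 12.1 ± 2.23 in the knockdown (SD, n = 3, exact two-sided permutation p = 0.8, adjusted p = 0.9). On the log2 scale the difference was 0.05, and 0.26 and 0.07 within the sets.

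With the library set as a covariate, UPF3A and SMG5 were called higher and 0 members lower, 2 of 9 where 20.2% of all tested genes were called (9.43% higher and 10.8% lower). Their increases were small, 10.9% for UPF3A (95% interval 3.93 to 18.4%) and 9.19% for SMG5 (3.04 to 15.7%). The call of UPF3A was lost without control 1, control 2, MTR4 KD 1 or MTR4 KD 3 (adjusted p from 0.0412 to 0.133 over the 6 fits, edgeR). That of SMG5 was lost in each of the 6 fits that left out 1 library (adjusted p from 0.0626 to 0.142). Without control 2, UPF3B (log2 fold change -0.25, adjusted p = 0.0478) and SMG8 (-0.33, adjusted p = 0.0207, edgeR) were called lower, and without MTR4 KD 3, UPF1 (0.17, adjusted p = 0.0462) was called higher.

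**Figure D2:**
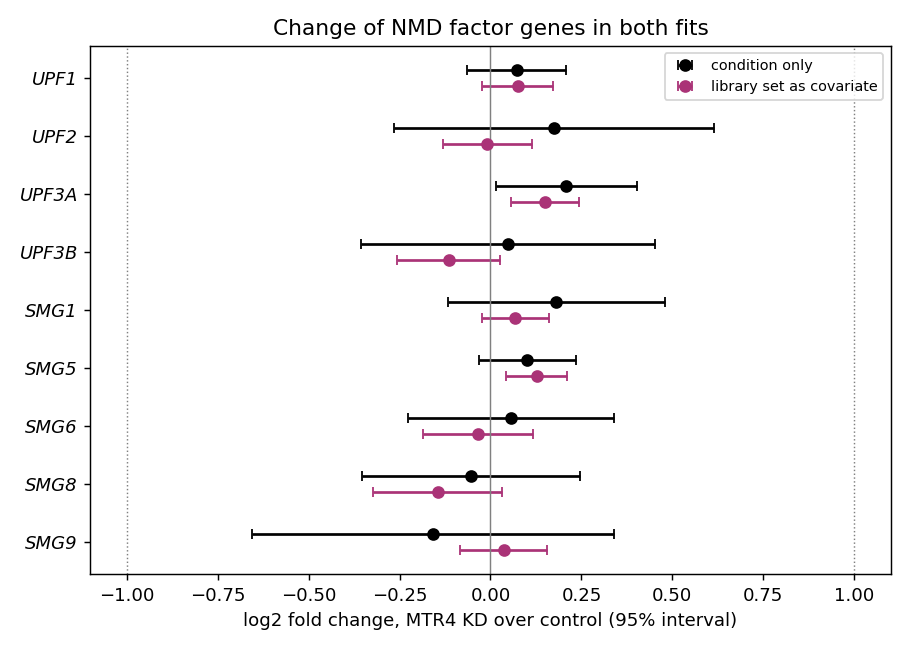
Log2 fold change of MTR4 KD over control (horizontal axis) with its 95% interval for each NMD factor gene, from the edgeR fit with condition only (black) and with the library set as a covariate (purple). All intervals lie between the dotted lines at a doubling and a halving, and with the covariate only those of UPF3A and SMG5 lie wholly above 0.

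Most NMD factor genes differed between the library sets. Between the sets, with condition as the other term, edgeR called 7 of the 9 members, where 31.5% of all tested genes were called (15.3% higher and 16.2% lower in the set with fewer reads of several alignments). UPF2 differed by 0.50 on the log2 scale (adjusted p = 1.94e-05), UPF3B by 0.45 (0.000172), SMG1 by 0.33 (6.7e-05), SMG6 by 0.26 (0.0123), SMG8 by 0.25 (0.0345) and UPF3A by 0.18 (0.00716), all higher in the set with fewer such reads. SMG9 was lower there by -0.58 (adjusted p = 4.79e-06). UPF1 (-0.01, adjusted p = 0.922) and SMG5 (-0.08, adjusted p = 0.157) were not called, and these 2 are also the members measured with the most reads. In 7 of 9 members the set difference exceeded the condition difference of the same fit in absolute size. The median absolute set difference was 0.260 for the members and 0.185 for all genes. In 5 members the knockdown difference had opposite signs in the 2 sets. For the interaction of condition and set, 0 members had an adjusted p under 0.05, where 0.974% of all tested genes did (edgeR). Of the members, 4 had an unadjusted p under 0.05 (lowest adjusted p = 0.210, edgeR). The shares of all genes for the counts of 7, 5 and 4 members are not given here. Whether these counts are particular to the members is therefore not known.

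**Figure D3:**
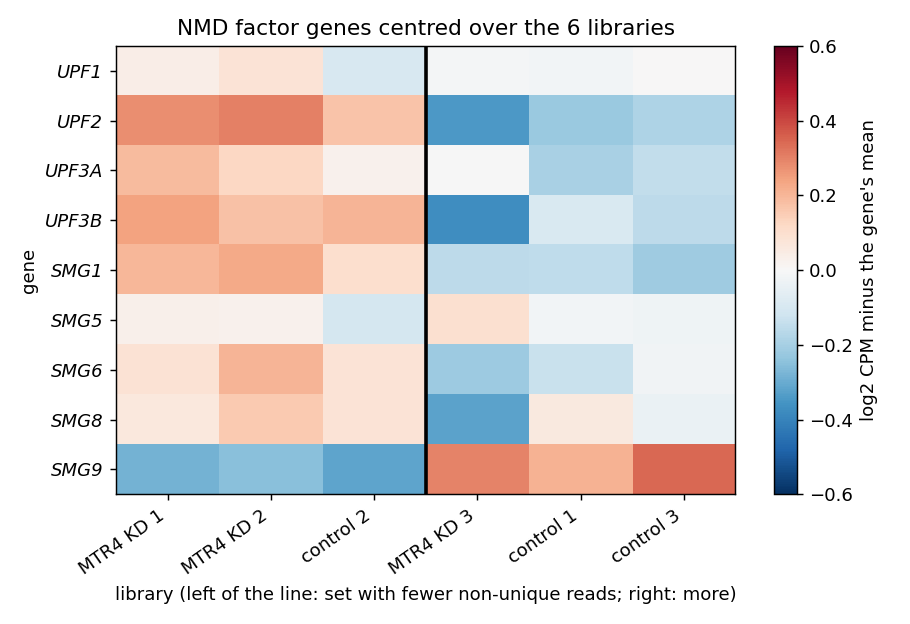
Log2 CPM of each NMD factor gene (rows) in each library (columns) minus the gene's mean over the 6 libraries, with the library set of fewer reads of several alignments left of the line. UPF2, UPF3A, UPF3B, SMG1 and SMG6 are above their mean in all 3 libraries on the left and below it in all 3 on the right. For UPF3A, MTR4 KD 3 is only just below. SMG9 is the reverse.

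The members differ in base composition, from 41.2% GC in the canonical transcript of UPF2 to 60.4% in that of UPF1. The members with the lowest GC content, UPF2, UPF3B (41.3%) and SMG1 (43.1%), had the largest positive set differences. Across the 9 members, Pearson's r between GC content and the set difference was -0.71, and across 13707 tested coding genes it was -0.39. For the knockdown difference with the covariate, r was 0.41 across the members and -0.0046 across the coding genes. Genes are not independent replicates, and all these points come from the same 6 libraries, so the correlations are a description. The share of base composition in the set difference was not tested.

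**Figure D4:**
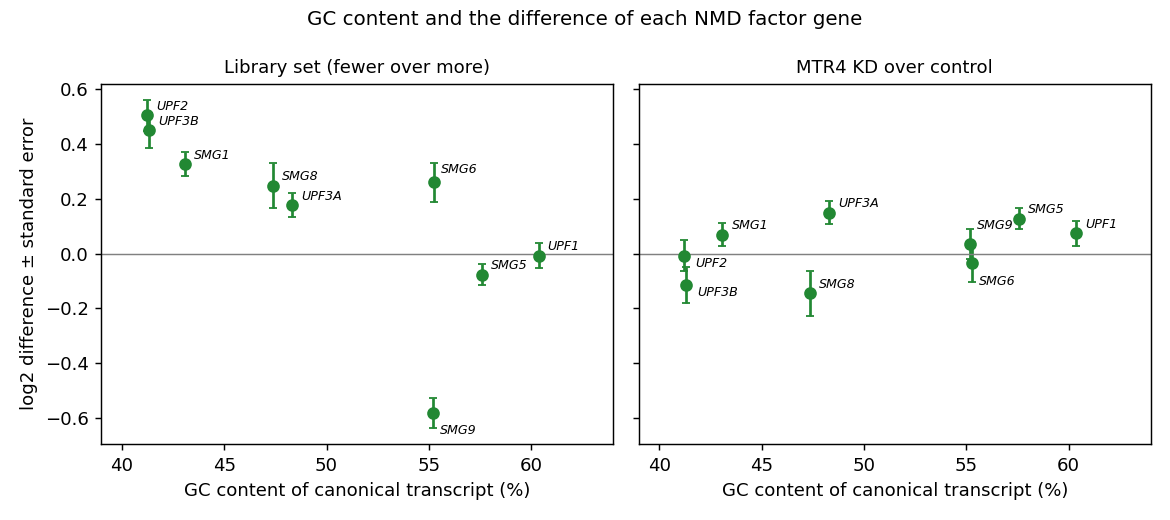
GC content of the canonical transcript (horizontal axis, %) against the log2 difference between library sets (left) and between MTR4 KD and control (right) for each NMD factor gene, with standard errors from the edgeR fit with both terms. On the left UPF2, UPF3B and SMG1 sit at low GC content with differences of 0.50, 0.45 and 0.33 and SMG9 lies at -0.58, and on the right all 9 points lie between -0.15 and 0.15.

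Annotation of the members shows features that are often discussed for NMD targets. Of the 13707 tested coding genes, the median 3' untranslated region (UTR) had 1254 bases. Those of SMG1 (4709 bases) and SMG9 (3613 bases) lie above the upper quartile of 2660.5 bases, and that of SMG8 (228 bases) lies below the lower quartile of 485 bases. UPF1 (1713), SMG6 (1649), SMG5 (1363) and UPF2 (1276) lie near the median, and UPF3A (900) and UPF3B (856) are shorter. An upstream ATG in the 5' UTR was found once each in UPF2, SMG1, SMG5 and SMG9, and 40.7% of coding genes have at least 1. Transcripts annotated as NMD substrates exist for UPF1 (2), SMG1 (1), SMG8 (1) and SMG9 (1), and gene-level counts cannot separate these from the coding transcripts. In SMG6, 24.7% of exon bases overlap genes on the opposite strand (HIC1 and ENSG00000236838). The sources used here do not give the strand setting of the counting, so reads from both strands cannot be told apart there. In SMG8, 11.3% of exon bases are shared with a gene on the same strand.

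A start of SMG1, SMG5 and SMG6 each lies within 1000 bases of the start of a gene on the opposite strand. Noncoding RNAs that start upstream of a gene on the opposite strand are known substrates of MTR4 and the nuclear exosome. Whether SMG1-DT, the noncoding neighbour of SMG1, is such a substrate was not tested. By RefSeq, SMG1-DT starts inside the SMG1 span (18926187). SRR likewise starts inside the SMG6 span (2303378). TMEM79 starts upstream of the inner SMG5 start (156282932). The neighbours were looked up in the annotation after the counts had been examined. The 250 bases before the 3 member starts are shown from RefSeq (GRCh38.p14), since a neighbouring gene also starts near them. RefSeq lists 2 starts for SMG5, and the one shown is the inner start, inside the gene span given above, since TMEM79 starts near it and not near the outer one. They are written 5' to 3' on the minus strand of the genome, which is the coding strand of all 3 members. Capitals mark the GC box, the letters GGGCGG on either strand, with overlapping matches joined.
SMG1, chr16:18926409-18926658: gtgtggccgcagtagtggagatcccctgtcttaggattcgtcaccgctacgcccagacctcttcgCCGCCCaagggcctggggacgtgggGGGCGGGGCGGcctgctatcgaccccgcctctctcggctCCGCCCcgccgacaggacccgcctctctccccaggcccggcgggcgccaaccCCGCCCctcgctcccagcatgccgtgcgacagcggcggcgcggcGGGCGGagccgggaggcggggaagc
SMG5, chr1:156282826-156283075: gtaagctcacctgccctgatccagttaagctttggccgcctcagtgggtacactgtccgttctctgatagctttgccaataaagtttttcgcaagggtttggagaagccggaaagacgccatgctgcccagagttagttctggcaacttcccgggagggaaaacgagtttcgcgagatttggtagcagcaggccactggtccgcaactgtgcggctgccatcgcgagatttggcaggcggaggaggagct
SMG6, chr17:2303786-2304035: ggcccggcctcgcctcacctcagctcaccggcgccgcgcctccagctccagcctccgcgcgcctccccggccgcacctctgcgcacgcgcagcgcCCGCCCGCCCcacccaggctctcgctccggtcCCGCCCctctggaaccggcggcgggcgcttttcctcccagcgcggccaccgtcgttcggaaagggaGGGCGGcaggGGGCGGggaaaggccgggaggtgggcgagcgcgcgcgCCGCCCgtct
The SMG1 and SMG6 stretches hold several GC boxes. The stretch before the inner SMG5 start holds none, while the one before its outer start (chr1:156291517-156291766, not shown) does hold the motif. RefSeq lists 15 promoters for 8 of the members (none was found for SMG8), and 10 of them, from 7 members, hold a GC box, as do 42.6% of 35116 promoters of the same length. The E-box CACGTG occurred in 2 promoters, of UPF2 and SMG6 (6.34% of all promoters), and the NRF1 motif and the cAMP response element TGACGTCA in none (1.03 and 1.65% of all promoters). A match is a description of the letters and not a bound site.

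SMG1-DT (ENSG00000260352), the divergent noncoding transcript of SMG1, had 20, 28 and 16 reads in the controls and 48, 45 and 44 reads in the knockdown. All 3 knockdown libraries were higher. Its level was 0.325 ± 0.0607 CPM in the controls and 0.725 ± 0.0546 CPM in the knockdown (SD, n = 3), while SMG1 itself overlapped between the groups. The log2 fold change of SMG1-DT was 1.14 (SE 0.267, adjusted p = 0.0714, edgeR), which missed the threshold, and 1.09 with the library set as a covariate (adjusted p = 0.0364, edgeR). Within the sets the difference of log2(CPM + 0.5) was 0.62 and 0.47, a scale that understates the change of a gene this low. The divergent neighbours of SMG5 and SMG6 are coding genes. Neither passed the test, TMEM79 at -0.30 on the log2 scale (adjusted p = 0.591) and SRR at -0.14 (adjusted p = 0.634, edgeR).

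Genes that work beside the NMD factors were read from 6 further lists. Of 15 NMD cofactors, which include the release factors, the cap-binding proteins and the chaperones that assemble SMG1 and related kinases, edgeR called 0 with condition only (median log2 fold change -0.07), 3 had an unadjusted p under 0.05 and were lower, and DESeq2 called 1 lower. With the library set as a covariate, where 9.43% of all tested genes were called higher and 10.8% lower, it called 3 higher and 5 lower. The higher genes were TELO2 (0.29), a chaperone subunit for this kinase family, and the RNA helicases DHX34 (0.23) and MOV10 (0.14). The lower genes were the ATPases RUVBL2 (-0.28) and RUVBL1 (-0.27), the release factors GSPT1 (-0.26) and GSPT2 (-0.18), and TTI1 (-0.22), a partner of TELO2. RUVBL2 measured 158, 151 and 161 CPM in the controls and 136, 133 and 121 CPM in the knockdown, with no overlap. TELO2 and its partner TTI1 thus had opposite signs.

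Of the 7 exon junction complex genes, edgeR and DESeq2 called 0 with condition only and 1 had an unadjusted p under 0.05. EIF4A3 (0.04), RBM8A (-0.01), MAGOH (0.28), MAGOHB (0.15) and CASC3 (0.12) make or bind the core of the complex and PYM1 (0.07) takes it apart on the ribosome. RNPS1, a peripheral member, stood at -0.20 (adjusted p = 0.174, edgeR) and -0.16 with the covariate (adjusted p = 0.0206, edgeR), the only call of this list in that fit. Of 12 decapping and deadenylation factors, both tools again called 0 with condition only, and 1 had an unadjusted p under 0.05. With the covariate the decapping helicase DDX6 (0.29, adjusted p = 0.000682, edgeR) was higher and the deadenylase CNOT8 (-0.17, adjusted p = 0.0373) lower. DDX6 measured 132, 164 and 121 CPM in the controls and 196, 195 and 157 CPM in the knockdown, control 2 lying above MTR4 KD 3. The kinase relatives of SMG1, namely ATM (0.11), ATR (0.11), PRKDC (0.08), MTOR (0.20) and TRRAP (0.12), were called in neither edgeR fit nor by DESeq2, and 0 had an unadjusted p under 0.05. All 5 were called higher in the set with fewer reads of several alignments, as SMG1 was.

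Among 19 transcripts reported to be sensitive to NMD, edgeR called 0 higher and 3 lower with condition only (median log2 fold change -0.08), 15.8% of the list against 3.6% of all tested genes (2.12% lower). At an unadjusted p under 0.05, where 18.8% of all genes lay, 1 was higher and 6 were lower, and DESeq2 called 0 higher and 3 lower. UPP1, a uridine phosphorylase, measured 35.2, 31.0 and 35.9 CPM in the controls and 23.3, 23.4 and 24.2 CPM in the knockdown (log2 fold change -0.53, SE 0.0782, adjusted p = 0.0153, edgeR). GADD45A, a stress response gene, measured 5.53, 5.95 and 6.55 CPM against 4.37, 3.85 and 4.11 CPM (-0.55, SE 0.112, adjusted p = 0.0466, edgeR). CDKN1A, which encodes the cell cycle inhibitor p21, measured 17.6, 17.4 and 18.8 CPM against 13.4, 12.2 and 13.4 CPM (-0.46, SE 0.0792, adjusted p = 0.0257, edgeR). In all 3 genes the groups did not overlap. CDKN1A and GADD45A are also known targets of p53. Without control 1, control 3, MTR4 KD 1 or MTR4 KD 2 the count of called genes of the 6 lists that were lower fell to 0.

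With the library set as a covariate, 36.8% of the list was called against 20.2% of all tested genes. There were 2 higher genes, DDIT3 (0.24) and ASNS (0.14), and 5 lower, the 3 above with ATF3 (-0.37) and ATF4 (-0.18). The transcription factors ATF4, ATF3 and DDIT3 and the asparagine synthetase ASNS all belong to the integrated stress response. The noncoding snoRNA hosts of this list, whose spliced RNAs are cleared by NMD, were not called in either fit. With condition only, GAS5 stood at -0.07 (adjusted p = 0.705, edgeR) and ZFAS1 at -0.05 (adjusted p = 0.897, edgeR). These values average opposite differences within the sets. Among libraries with more reads of several alignments GAS5 stood at 0.10 and ZFAS1 at 0.30, and among those with fewer at -0.22 and -0.41. SNHG1, SNHG12 and EPB41L4A-AS1 likewise changed sign between the sets, while SNHG15 was lower in both (-0.02 and -0.24). Of 14 genes with poison exons, whose inclusion sends the mRNA to NMD, edgeR called 0 with condition only (median 0.10), 4 had an unadjusted p under 0.05 (18.8% of all genes did) and were higher, and DESeq2 called 2 higher. With the covariate 5 were higher and 0 lower, 35.7% of the list against 20.2% of all genes (9.43% higher), namely the splicing regulators SRSF6 (0.28), TRA2A (0.27), SRSF11 (0.17), SRSF5 (0.16) and SRSF3 (0.15). TRA2A measured 50.5, 50.8 and 50.0 CPM in the controls and 58.9, 59.6 and 62.7 CPM in the knockdown, a difference larger than the spread within either group that missed the threshold with condition only (adjusted p = 0.0529, edgeR). Gene-level counts do not show whether the poison exon was included. All 23 genes of the 6 lists that were called with the covariate differed in the same direction within both sets. That fit favours genes whose differences agree between the sets, and the libraries are the same. The agreement is therefore no separate evidence for these calls. The hepatocyte marker changes given above accompany these list changes, and their part in them was not tested.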

How the data were processed

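RNA-seq was analysed in 6 PLC/PRF/5 libraries, grouped by the labels. The authors deposited raw counts of reads per gene, which the submitters' notes attribute to HTSeq after HISAT2 2.1.0 alignment to GRCh38. The counting mode and strand setting are not given in the sources used here. Entries not assigned to a gene (37.7 to 49.3% per library) stayed out of library sizes. They include reads with more than 1 alignment, ambiguous reads and low-quality reads, and only 2.51 to 3.10% of entries lay on no feature. Of 60675 genes, 18075 passed filterByExpr (minimum count 10) and were fitted with edgeR 4.0.16 (R 4.3.3; TMM, quasi-likelihood test, condition as the only term, Benjamini-Hochberg adjustment over all tested genes, called at an adjusted p under 0.05). Alternatives used DESeq2 1.42.0, limma 3.58.1, other scalings and filters, and a covariate for the library set (over 30% of entries with more than 1 alignment). Within-set differences are of mean log2(CPM + 0.5). Read ratios were compared by exact permutation tests.

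The biological variation estimated by edgeR was 0.175 with condition only and 0.0573 with the library set (coefficient of variation), which sets the width of the intervals. The labels of replicates 1 to 3 give no pairing between the groups beyond the shared numbers. The NMD factors and all gene lists were chosen with earlier results of these data known. All members and MTREX, the members' pseudogenes, lists of 7 genes or fewer, and of longer lists the called genes with the largest changes were named. For the covariate fit, called genes beyond 3 per direction, and the snoRNA hosts, were chosen after their values were seen. The rule of naming genes with a like pattern applied to called members only and named none. Gene features came from GENCODE v44 (lifted to GRCh37, lengths only) and positions and promoters from RefSeq (GRCh38.p14). Of the marker genes, PECAM1 was not matched. The edgeR, DESeq2 and limma-voom fits with condition only were run on simulated data that held no library sets, with the outcome not given here. The fit with the library set was not tested in this way.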

Additional observations from a re-analysis of the deposited data

Results flagged for a closer look

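The knockdown difference of 2 members, UPF2 and SMG6, had opposite signs in the 2 library sets for every pairing of a knockdown with a control library. For UPF2 the log2 difference was -0.14 among libraries with more reads of several alignments and 0.12 among those with fewer, a gap of 0.26 (adjusted p of the interaction 0.210, edgeR). For SMG6 it was -0.14 and 0.06, a gap of 0.20 (adjusted p of the interaction 0.611, edgeR). One SMG6 pairing was nearly level, with control 2 at 24.46 CPM and MTR4 KD 1 at 24.53 CPM. The share of all genes with such opposite pairings is not given here. Neither interaction passed the threshold, where 0.974% of all tested genes (176) did. Each set held 1 library of one group and 2 of the other.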

How the results depend on the processing

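Over 16 alternatives the 9 members gave 144 log2 fold changes, of which 133 kept their sign and their side of the threshold, 9 changed sign and 2 passed the threshold. With the library set as a covariate 2 members were called higher, UPF3A (0.15) and SMG5 (0.13), and UPF2 (-0.0085), UPF3B (-0.11), SMG6 (-0.035) and SMG9 (0.036) changed sign. Leaving out 1 library in turn gave ranges of 0.045 to 0.17 for the members' median (highest without MTR4 KD 3), 0.061 to 0.36 for UPF2, -0.37 to -0.021 for SMG9, -0.060 to 0.22 for UPF3B, -0.040 to 0.17 for SMG6 and -0.16 to 0.079 for SMG8, and called 0 members. With both choices together, which was added after seeing the data, 0 to 1 members were called higher and 0 to 2 lower. The cause of these shifts was not tested. MTREX stayed between -0.82 and -0.68 (highest adjusted p = 0.0485). Of all genes, 267 were called higher and 383 lower. DESeq2 called 593 and 770, the library set covariate 1705 and 1944, a fold change over 2 as well 58 and 92, and fits without 1 library 52 to 300 and 85 to 503. Genes of the 6 further lists called higher numbered 0, but 1 with library totals, 1 with a CPM filter, 2 with DESeq2, 1 with the replicate block, 11 with the covariate and 0 to 4 without 1 library. Those called lower numbered 3, but 12 with the covariate, 4 with DESeq2, 0 with the fold limit, 0 to 3 without 1 library, and 2 with library totals, upper-quartile scaling, no filter, limma-voom or the replicate block (where GADD45A lost its call, adjusted p = 0.0582). The UPF3A to UPF3B log2 ratio difference, 0.18, was 0.41 within the set with more reads of several alignments.

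The replicate block called 0 members, left every member's sign as it was and called 342 genes higher and 515 lower. Deviations of same-numbered libraries correlated at -0.41, 0.50 and 0.53, and not every library correlated best with its own number. Every pair of a control and a knockdown library correlated positively within a library set and negatively across the sets. The correlations therefore follow the sets and cannot decide whether the replicate numbers pair the libraries. No scaling moved the median of all genes by more than 0.02. The fewest reads of a member in a library were 987, for SMG8, and the most were 18550, for SMG5. With the library set as a covariate the standard error was 0.0821 for SMG8 and 0.0387 for SMG5. Changes of members with few reads were thus measured less precisely, and whether depth limited their calls was not tested.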
